A study of Mus musculus with 10 samples.

Results

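The genes described here are 35 genes of fatty acid oxidation and of the transcriptional programme run by PPAR alpha, out of 17274 genes listed by symbol for mouse liver. They were chosen by symbol, with earlier results of these data known, and all 35 were found in the table and passed the filter on low values. By cell compartment, 16 act in mitochondria, 7 in peroxisomes and 4 in microsomes. A further 4 are acyl-CoA thioesterases, 1 (Bdh1) interconverts ketone bodies, and 3 (Pdk4, Vnn1 and Ppargc1a) act as a fuel switch, a pantetheinase and a coactivator. The livers came from wild-type mice fed the CDAHFD diet, a high-fat diet without choline whose protein is replaced by defined amino acids, which produces nonalcoholic steatohepatitis (NASH). In 5 livers the animal had received a control adeno-associated virus (AAV) by vein, and in the other 5 an AAV encoding the microRNA miR-181d-5p, so that the genotype, the diet and an AAV injection were common to both groups. A group on normal chow was not analysed here. For serotype, promoter, dose, age and sex the sources used here have no entry. The labels number the livers but do not say that each is a separate animal, and all p-values therefore refer to the spread among these samples only.

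Long-chain fatty acids enter mitochondria as carnitine esters and are shortened there by repeated rounds of dehydrogenation, hydration, a second dehydrogenation and thiolysis, with the electrons passed on to the respiratory chain. Very long chains are first shortened in peroxisomes, and a microsomal route run by CYP4A enzymes hydroxylates the far end of the chain. PPAR alpha, a nuclear receptor that binds fatty acids and pairs with RXR, switches on genes of all these routes in fasting and lipid-loaded liver, and the CYP4A and thioesterase genes are known as its most inducible targets in mice.

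MicroRNAs pair with 3' UTRs mainly through their seed, so the delivered microRNA and the matching sites in these genes are shown first. The seed of miR-181d-5p (RefSeq, GRCm38.p6), bases 2 to 8, is in capitals in the first line below, and the site is in capitals in the others, which run 5' to 3' with 9 bases of context on each side.
mmu-miR-181d-5p: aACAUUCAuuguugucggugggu
Decr1: tctatgcaaGAATGTAgagtttctg
Cyp4a31: cccaaggccTGAATGTcattgtgaa
Pdk4: gctgcttcgTGAATGTgtgtggact
These 3 of 35 genes (8.57%) held a match in the longest annotated 3' UTR (GENCODE vM21, mm10), against 2702 of 11770 tested genes with a 3' UTR (23%). The 3' UTRs of the 35 genes were shorter, with a median of 689 nt against 1114 nt. The Decr1 site, of another kind than the other 2, is a 7mer-A1 (GAATGTA), whose last base lies opposite the first base of the microRNA and does not pair with it. It is at chr4:15917529-15917535 on the reverse strand, in exon 10 of 10. The Cyp4a31 site is a 7mer-m8, TGAATGT, which pairs with the whole seed, at chr4:115578847-115578853 on the forward strand, in exon 11 of 11, and the Pdk4 site is also of this kind, TGAATGT, at chr6:5485384-5485390 on the reverse strand, in exon 11 of 11. A match is a description of the letters, and whether the microRNA acts at any of these sites was not tested.

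Libraries held 18985912 to 20657019 gene-assigned reads, and the 4 Y-linked genes Ddx3y, Eif2s3y, Kdm5d and Uty were read in every liver. The 20 hepatocyte markers summed to 62065 to 71140 FPKM (fragments scaled by gene length and library size) in control livers and 64755 to 71602 FPKM in miR-181d-5p livers. By limma on log2(FPKM + 1), with Benjamini-Hochberg adjustment over 12053 genes, 0 genes had an adjusted p under 0.05, and voom on reads recovered from the FPKM also called 0. Unadjusted, 607 genes were higher and 1161 lower with the microRNA at a p under 0.05. Scaling moved that split, to 347 and 1266 when FPKM were rescaled to one sum per liver and to 997 and 942 with quantile normalization.

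None of the fatty acid oxidation genes differed between the groups after adjustment, and most differences were small. Of the 35 genes, 0 passed by limma after adjustment, where 0% of all genes did, and 1 (2.86%) had an unadjusted p under 0.05, where 14.7% of all genes did. That gene was Ppargc1a, which was also the 1 gene of the 35 whose groups did not overlap, against a background of 2.47% of all genes (1.45% with the microRNA lower and 1.02% with it higher). The log2 change, miR-181d-5p minus control on the log2(FPKM + 1) scale, was above 0 for 22 of the 35 genes (62.9%), against 45.5% of all genes, and this count was 19 with FPKM rescaled to a common sum, 18 after quantile normalization and 16 to 31 when single livers were left out. The 95% interval of the log2 change lay within 1 on either side of 0 for 33 of 35 genes (94.3%, all genes 98.8%) and within 0.5 for 24 of 35 (68.6%, all genes 86.8%). In bulk liver RNA, fewer cells of a type and less RNA per cell cannot be told apart.

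**Figure D1:**
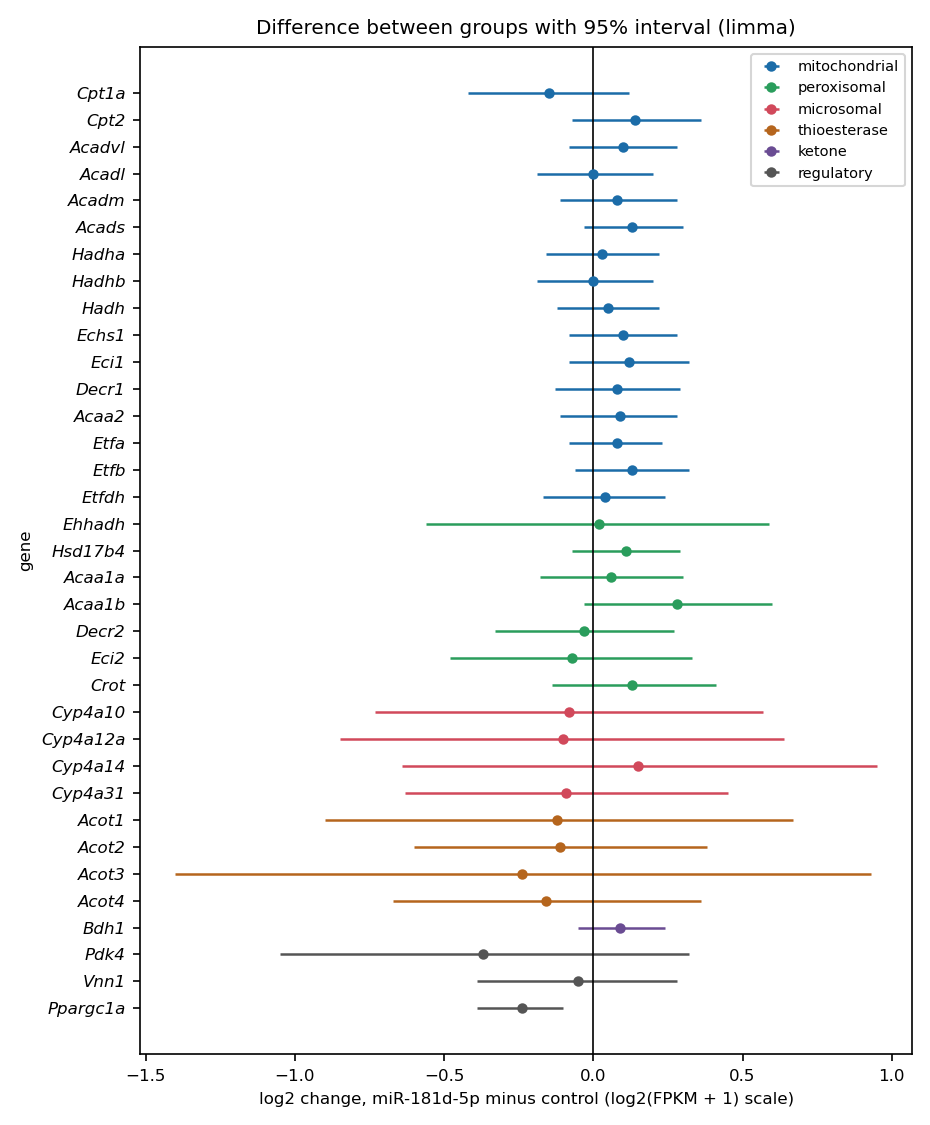
Log2 change of each of the 35 genes, miR-181d-5p minus control on the log2(FPKM + 1) scale, as points with 95% intervals from limma (5 livers a group), coloured by compartment. The intervals of the mitochondrial genes are narrow and cross 0, those of the microsomal and thioesterase genes are wide, and only the interval of Ppargc1a lies wholly on one side of 0 (-0.39 to -0.10).

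Among the mitochondrial genes, 15 of 16 had a log2 change above 0, with a median of 0.08 where the median of all genes was -0.02. The count was 13 of 16 when FPKM were rescaled to a common sum, 12 of 16 after quantile normalization and 11 to 15 when single livers were left out. None of the 16 had an unadjusted p under 0.05. The lowest and highest ends of their 95% intervals were 0.747-fold (Cpt1a, 0.747 to 1.09) and 1.28-fold (Cpt2, 0.954 to 1.28).

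Entry into mitochondria is set by 2 carnitine palmitoyltransferases, and Cpt1a was the exception to the common direction. Cpt1a, the outer membrane enzyme that malonyl-CoA inhibits and that limits the rate of entry, stood at 171, 149.7, 157, 130.3 and 104 FPKM in control livers 1 to 5 and at 119, 142, 109, 124 and 141 FPKM in miR-181d-5p livers 1 to 5. The 3 highest values were all controls, but control liver 5 was the lowest of all 10, and the groups overlapped. The limma log2 change of Cpt1a was -0.15 (SE 0.125, adjusted p = 0.578), and without control liver 5 it was -0.26 (adjusted p = 0.19). Cpt2, the inner membrane enzyme that turns the carnitine ester back into acyl-CoA, stood at 48.3 to 74.2 FPKM in controls and 58.6 to 70.1 FPKM with the microRNA, a log2 change of 0.14. Slc25a20, the carrier between them, is not among the 35 genes and stood at 73.2 ± 10.3 FPKM in controls and 73.3 ± 10.1 FPKM with the microRNA (SD, n = 5 each), with a log2 change of 0.00.

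The 4 acyl-CoA dehydrogenases, which take the first step on chains of decreasing length, all overlapped between the groups. Acadm, for medium chains, stood at 208, 221, 279, 227 and 215 FPKM in control livers and at 234, 236, 219, 270.2 and 255 FPKM in miR-181d-5p livers. Control liver 3 was the highest of all 10, and the other 4 controls lay below 4 of the 5 miR-181d-5p livers. The log2 change of Acadm was 0.08 (SE 0.09, adjusted p = 0.681 by limma), and 0.15 without control liver 3. Acadvl, for very long chains, stood at 180.1 to 232 FPKM in controls and 191 to 229 FPKM with the microRNA (log2 change 0.10). Acadl, for long chains, stood at 143 to 187 against 140 to 176 FPKM (log2 change 0.00), and Acads, for short chains, at 105 to 139 against 126 to 143 FPKM (log2 change 0.13).

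The enzymes of the later steps showed the same narrow range. Hadha and Hadhb, the 2 subunits of the trifunctional protein on the inner membrane, stood at 149 to 187 and 52.8 to 68.6 FPKM in controls and at 155 to 193 and 49.5 to 65.5 FPKM with the microRNA, with log2 changes of 0.03 and 0.00. Their ratio was 2.98 ± 0.258 in controls and 3.03 ± 0.0678 with the microRNA (SD, n = 5 each, two-sided exact permutation p = 0.6746). Hadh, the short-chain hydroxyacyl-CoA dehydrogenase, had a log2 change of 0.05, and Echs1, the short-chain enoyl-CoA hydratase, 0.10. Acaa2, the matrix thiolase and the most abundant mitochondrial member, stood at 389 to 522 FPKM in controls and 423 to 488 FPKM with the microRNA, a log2 change of 0.09.

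Unsaturated chains need auxiliary enzymes, of which Eci1, an enoyl-CoA isomerase, stood at 96.6 to 138 against 112 to 132 FPKM (log2 change 0.12). Decr1, a dienoyl-CoA reductase and one of the 3 genes with a seed match, stood at 61.7 to 84.9 FPKM in controls and 63.6 to 82.7 FPKM with the microRNA, a log2 change of 0.08 (95% interval -0.13 to 0.29). Electrons leave the dehydrogenases through the flavoprotein ETF and its dehydrogenase. The log2 changes were 0.08 for Etfa, 0.13 for Etfb and 0.04 for Etfdh, and the ratio of the ETF subunits, Etfb over Etfa, was 8.95 ± 0.548 in controls and 9.27 ± 0.553 with the microRNA (SD, n = 5 each, two-sided exact permutation p = 0.381). Hadha, Acadvl, Echs1 and Etfdh overlap a gene of the table on the opposite strand, so their values are uncertain because the strand setting of the counting is unknown from the sources used here. Acadl overlaps Gm15793, a gene of the table on the same strand, so its values are uncertain too.

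**Figure D2:**
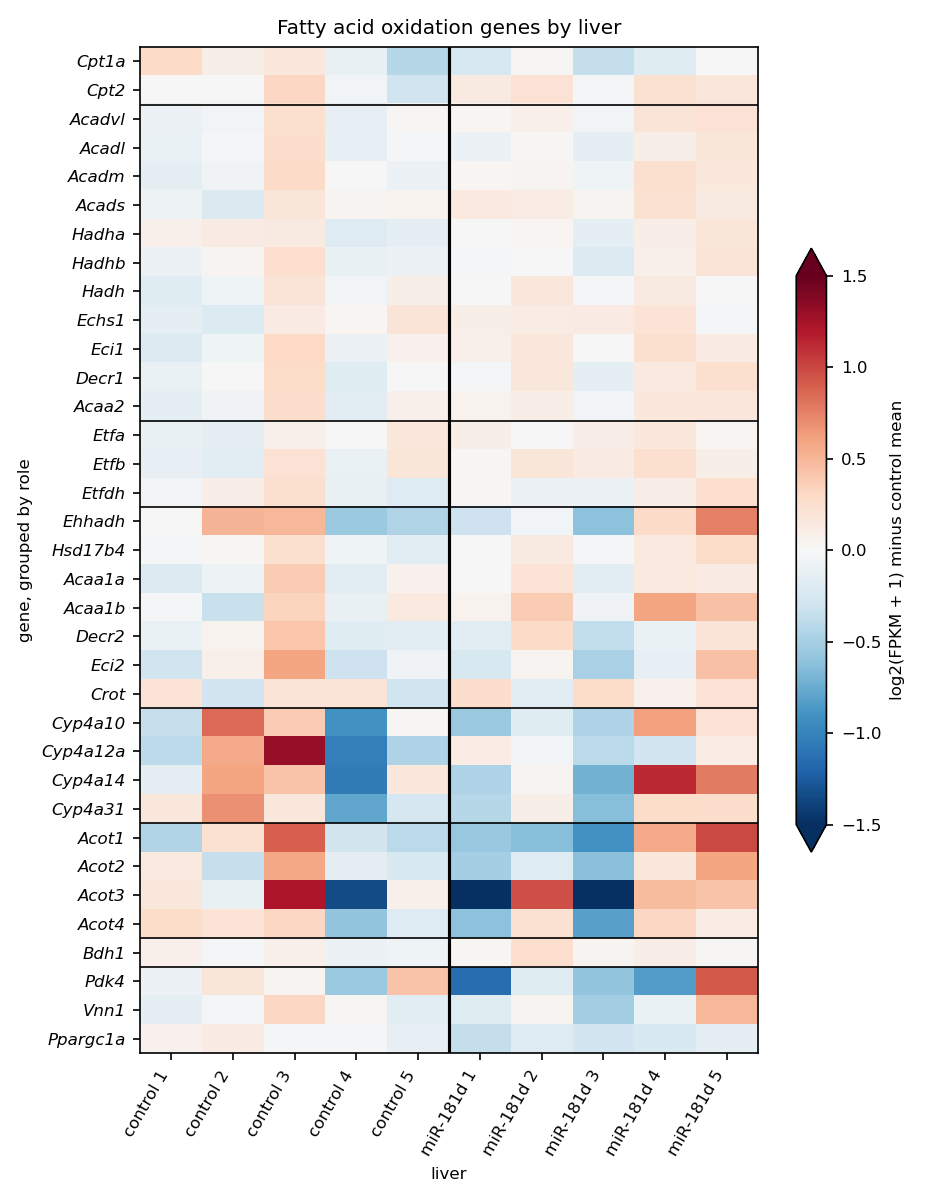
Each cell is log2(FPKM + 1) of 1 gene in 1 liver minus the mean of the 5 control livers, for the 35 genes grouped by role (rows) and the 10 livers (columns). Control liver 3 is red across most rows and miR-181d-5p liver 3 is blue across most rows, and the colours are deepest in the Cyp4a and Acot rows.

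Of the 7 peroxisomal genes, 5 had a log2 change above 0 and 2 below, with a median of 0.06, and 0 had an unadjusted p under 0.05. The change with the smallest p was that of Acaa1b, a peroxisomal thiolase and, per length, the most abundant of the 35 genes. Acaa1b stood at 547, 443, 704, 516 and 619 FPKM in control livers and at 582, 729, 539, 846 and 756 FPKM in miR-181d-5p livers. The 3 highest livers had received the microRNA, and the other 2 of that group lay among the controls. Its log2 change was 0.28 (SE 0.144, unadjusted p = 0.0708, adjusted p = 0.372 by limma) and ran from 0.20 to 0.37 over all alternatives.

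Acaa1a, the second copy of this thiolase, had a log2 change of 0.06, with 118 to 177 FPKM in controls and 122 to 157 FPKM with the microRNA. The coding sequences of the 2 copies are identical at 96.5% of positions, so the split of reads between them is uncertain, and both overlap opposite-strand genes of the table. Within each liver Acaa1b over Acaa1a was 4.65, 3.43, 3.99, 4.28 and 4.35 in controls and 4.32, 4.63, 4.43, 5.64 and 5.11 with the microRNA. The means were 4.14 ± 0.462 and 4.82 ± 0.546 (SD, n = 5 each), and the two-sided exact permutation p was 0.06349, or 0.317 adjusted over the 5 within-family ratios compared.

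Ehhadh, the peroxisomal bifunctional enzyme and a classical PPAR alpha target, varied most among the peroxisomal genes. It stood at 203, 288, 287, 137 and 148 FPKM in control livers and at 163, 197, 132, 247 and 343 FPKM in miR-181d-5p livers. Both the highest and the lowest of the 10 livers had received the microRNA, and the log2 change was 0.02 (95% interval -0.56 to 0.59), turning to -0.17 and 0.17 at the ends of its range when single livers were left out. Hsd17b4, the other bifunctional enzyme, which also handles branched chains and bile acid precursors, stood at 145 to 193 against 162 to 198 FPKM (log2 change 0.11).

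Crot, which loads shortened chains onto carnitine for export from the peroxisome, had a log2 change of 0.13, with 119.6 to 170.2 FPKM in controls and 131 to 178 FPKM with the microRNA. The auxiliary enzymes Decr2 and Eci2 had log2 changes of -0.03 and -0.07. Eci2 stood at 53.3 to 100.1 FPKM in controls and 47.2 to 90.3 FPKM with the microRNA.

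The microsomal genes are 4 fatty acid omega-hydroxylases of one cluster on chromosome 4 (mm10), where Cyp4a12a spans chr4:115299046-115332815, Cyp4a14 chr4:115486200-115496142, Cyp4a10 chr4:115518264-115533649 and Cyp4a31 chr4:115563649-115579015. Their log2 changes were above 0 for 1 gene and below for 3, with a median of -0.08, and 0 had an unadjusted p under 0.05. Single livers set the direction of the group, since leaving out single livers gave anywhere from 0 to 4 genes above 0 and medians from -0.29 (without control liver 4) to 0.12 (without control liver 3). Cyp4a14, the most abundant of the 4 per length, stood at 156, 261, 232, 82.8 and 193 FPKM in control livers and at 125, 177, 105, 376 and 297 FPKM in miR-181d-5p livers. The miR-181d-5p livers split into 2 above all controls and 3 within the control range, and the log2 change was 0.15 (SE 0.366, adjusted p = 0.862 by limma).

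Cyp4a10 stood at 89.4, 206, 149, 60.1 and 115 FPKM in control livers and at 76.8, 100.1, 82.1, 175 and 132 FPKM in miR-181d-5p livers, a log2 change of -0.08. The lowest and the highest liver were both controls. Cyp4a14 over Cyp4a10 was 1.53 ± 0.203 in controls and 1.82 ± 0.399 with the microRNA (SD, n = 5 each, two-sided exact permutation p = 0.2222, adjusted 0.555). Cyp4a31, one of the 3 genes with a seed match, stood at 9.77 to 28.7 FPKM in controls and 10.8 to 21.3 FPKM with the microRNA, a log2 change of -0.09 (95% interval -0.63 to 0.45). Cyp4a12a, which is known as a gene of male liver and kidney, stood at 1.73 to 12.7 FPKM in controls and 3.18 to 4.99 FPKM with the microRNA, a log2 change of -0.10.

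The coding sequence of Cyp4a10 is identical to that of Cyp4a31 at 96.6% of aligned positions and to that of Cyp4a32 at 97.2%, and Cyp4a12a matches Cyp4a12b at 98.5%. The values of these copies are therefore uncertain, while Cyp4a14 matches Cyp4a10 at 75.6%. Cyp4a32 and Cyp4a12b, which are not among the 35 genes, stood at 5.24 to 14.1 and 2.44 to 9.0 FPKM in controls and at 6.05 to 11.1 and 2.53 to 5.84 FPKM with the microRNA.

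**Figure D3:**
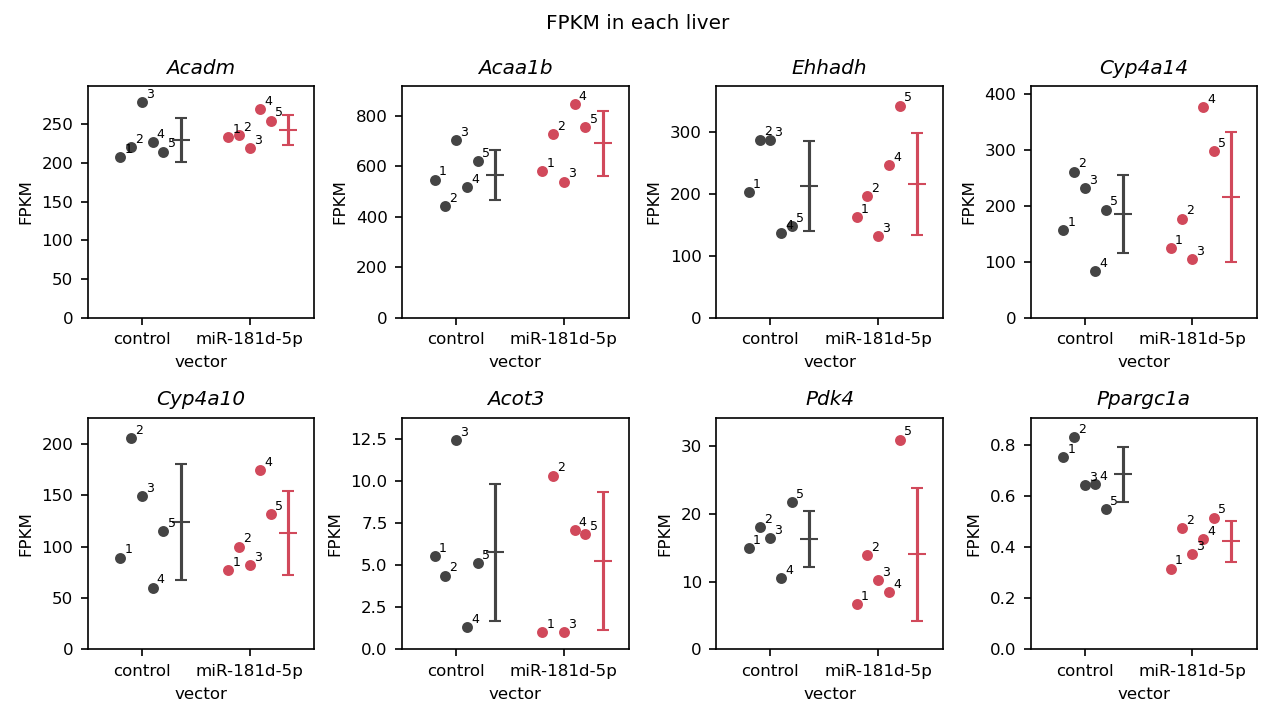
FPKM of 8 of the genes in each liver (points, numbered by liver) with the mean and SD of each group (n = 5), each panel on its own axis from 0. Both groups overlap in all panels except that of Ppargc1a, where the 5 control livers (0.551 to 0.832) lie above the 5 miR-181d-5p livers (0.316 to 0.516).

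The 4 acyl-CoA thioesterases, which free fatty acids from CoA in the cytosol (Acot1), mitochondria (Acot2) and peroxisomes (Acot3 and Acot4), lie side by side on chromosome 12 between 83987861 (the start of Acot2) and 84060402 (the end of Acot3). All 4 had a log2 change below 0, also under the other scalings, with a median of -0.14, and 0 had an unadjusted p under 0.05. Each of the 4 also took a positive sign when some single liver was left out. Acot3 spread the most of the 35 genes: it stood at 5.51, 4.36, 12.4, 1.29 and 5.13 FPKM in control livers and at 1.0, 10.3, 1.01, 7.08 and 6.83 FPKM in miR-181d-5p livers. Of the 3 livers near 1 FPKM, 1 was a control and 2 had received the microRNA, so the spread was within both groups. The log2 change of Acot3 was -0.24 (SE 0.538, 95% interval -1.40 to 0.93), and its lowest liver held 50 reads.

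Acot1 stood at 12.8, 21.0, 34.1, 14.6 and 13.2 FPKM in control livers and at 11.7, 11.1, 8.99, 26.9 and 36.3 FPKM in miR-181d-5p livers. The same 3 livers, control liver 3 and miR-181d-5p livers 4 and 5, were the highest for Acot1 and for Acot2, and the groups overlapped for both. The log2 changes were -0.12 for Acot1, -0.11 for Acot2 and -0.16 for Acot4. Acot1 and Acot2 are identical at 85.5% of aligned coding positions, so reads that fit both are uncertain, and their ratio was 0.793 ± 0.261 in controls and 0.779 ± 0.227 with the microRNA (SD, n = 5 each, two-sided exact permutation p = 0.9762).

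Bdh1, which turns acetoacetate into beta-hydroxybutyrate, stood at 112 to 126 FPKM in controls and 121 to 142 FPKM with the microRNA, a log2 change of 0.09 (SE 0.067, adjusted p = 0.519 by limma). Its spread within groups was among the smallest of the 35 genes.

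Pdk4, the kinase that inhibits pyruvate dehydrogenase and so spares glucose when fat is burned, had the log2 change of largest size among the 35 genes with a pseudocount of 1. With a pseudocount of 0.1 or by voom that of Ppargc1a, described next, was larger. Pdk4 stood at 14.9, 18.1, 16.4, 10.5 and 21.7 FPKM in control livers and at 6.65, 13.9, 10.2, 8.47 and 31.0 FPKM in miR-181d-5p livers. Of the miR-181d-5p livers, 3 lay below every control, 1 lay among the controls, and liver 5 was the highest of all 10. The log2 change of Pdk4 was -0.37 (SE 0.318, adjusted p = 0.594 by limma), without miR-181d-5p liver 1 it was -0.17, and without miR-181d-5p liver 5 it was -0.69 (unadjusted p = 0.00672, adjusted p = 0.257). Its 3' UTR holds the seed match shown above. Vnn1, a pantetheinase that releases cysteamine and a known PPAR alpha target, stood at 35.5 to 49.8 FPKM in controls and 27.6 to 56.7 FPKM with the microRNA, a log2 change of -0.05, with the same liver highest.

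Ppargc1a, which encodes the coactivator PGC-1 alpha that docks on PPAR alpha and other receptors to drive oxidative genes, was lower in every miR-181d-5p liver than in every control liver. It stood at 0.754, 0.832, 0.644, 0.649 and 0.551 FPKM in control livers and at 0.316, 0.475, 0.374, 0.432 and 0.516 FPKM in miR-181d-5p livers, or 61.6% of the control mean. Control liver 5 and miR-181d-5p liver 5 lay closest, at 0.551 and 0.516. The limma log2 change was -0.24 (SE 0.068, unadjusted p = 0.00354, adjusted p = 0.232), so Ppargc1a did not pass. Because the pseudocount of 1 exceeds these levels, a smaller pseudocount of 0.1 gave -0.59, and voom on recovered reads gave -0.70 (adjusted p = 0.201).

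The levels of Ppargc1a rest on 168 to 253 reads per control liver and 98 to 163 reads per miR-181d-5p liver. They are low partly by construction, since the FPKM divide these reads by a gene length of 15902 nt. Over the alternatives that test it, the adjusted p of Ppargc1a ran from 0.152 to 0.501 and its sign did not turn, and it is not tested when a mean of 1 FPKM is required. The 3930-nt 3' UTR of Ppargc1a holds 0 seed matches of the kinds searched. The gene spans chr5:51454250-51567726 (mm10, reverse strand), and the 250 bases before its start (RefSeq, GRCm38.p6, chr5:51567726-51567975, reverse strand) are shown because this is the gene whose groups separated.
Ppargc1a promoter: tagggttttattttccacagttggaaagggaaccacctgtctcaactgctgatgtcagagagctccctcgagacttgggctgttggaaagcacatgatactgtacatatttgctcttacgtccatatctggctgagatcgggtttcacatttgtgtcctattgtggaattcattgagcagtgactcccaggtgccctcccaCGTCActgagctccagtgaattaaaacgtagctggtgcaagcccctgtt
The capitals mark the 1 match to the half-site of the cAMP response element, TGACG on either strand, which begins 49 bases before the end of this window. Such a match occurs in 17.8% of 32851 promoters and in 6 of the 27 members with a promoter in the reference (Acadm, Acot2, Ehhadh, Etfa, Etfdh and Ppargc1a). The percentages here count promoters, while a member gene counts if any of its promoters matches, so the 2 are in unlike units. The full element TGACGTCA was in 0 of the 27 (1.55% of all promoters). The consensus direct repeat bound by PPAR and RXR was in 0 of the 27 (0.0335% of all promoters), and a looser form of it, which includes the former, in 0 of the 27 (0.338%). All motifs were searched on both strands, and a window without a match says only that these letters are not in it.

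Livers of one group varied little in the mitochondrial genes and widely in the microsomal and thioesterase genes. The highest liver exceeded the lowest of all 10 by 1.24 to 1.64 times in the mitochondrial genes, 1.36 to 2.59 times in the peroxisomal genes, 2.94 to 7.33 times in the microsomal genes and 2.39 to 12.4 times in the thioesterases. The within-group SD of log2(FPKM + 1), pooled over both groups, was below the 75th percentile of all tested genes (0.198) for 15 of 16 mitochondrial genes. It was at or above the 95th percentile (0.324) for 11 of the 35 genes: the 4 Cyp4a genes, the 4 Acot genes, Ehhadh, Eci2 and Pdk4. The SD was larger in controls for 24 of the 35 genes (68.6%), against 76.1% of all genes. Among the 11, Cyp4a14 held at least 5475 reads and Ehhadh at least 7571 reads in each liver, while Acot3 held as few as 50.

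**Figure D4:**
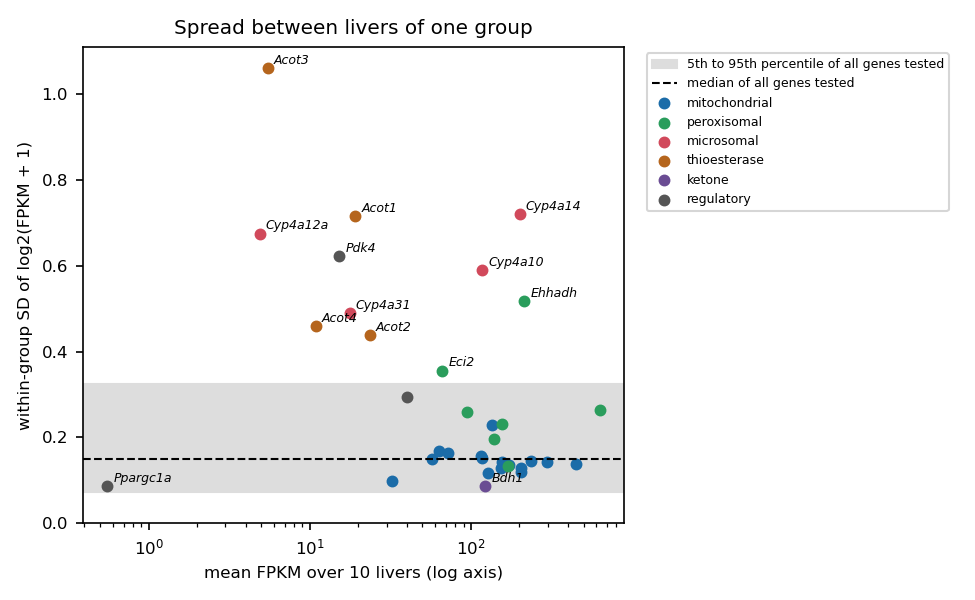
Within-group SD of log2(FPKM + 1), pooled over both groups, against the mean FPKM over 10 livers (log axis), 1 point per gene, with the 5th to 95th percentile (0.0739 to 0.324) of all 12053 tested genes in grey and their median (0.150) dashed. The mitochondrial genes lie inside the grey band, and all Cyp4a and Acot genes lie above it.

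Some livers were high or low across compartments. Control liver 3 was the highest control for 25 of the 35 genes, where it was the highest control for 10.7% of all genes, and miR-181d-5p liver 3 was the lowest of its group for 25 of 35, against 12.4% of all genes. Relative to the control mean, control liver 3 stood at 0.22 on the log2 scale over the mitochondrial genes, 0.38 over the peroxisomal, 0.57 over the microsomal and 0.75 over the thioesterase genes. Control liver 4 stood at -0.08, -0.17, -0.94 and -0.59 in the same order, and miR-181d-5p liver 3 at -0.06, -0.20, -0.56 and -0.97. miR-181d-5p liver 5 was high in all 4, at 0.13, 0.35, 0.34 and 0.53, and so was miR-181d-5p liver 4, at 0.15, 0.14, 0.43 and 0.38. Control liver 5 was below 0 in all 4, at -0.03, -0.13, -0.13 and -0.19. Control livers 1 and 2 and miR-181d-5p livers 1 and 2 did not hold the same sign in all 4. Control liver 2 was the highest of all 10 over the microsomal genes (0.68) but stood at -0.04, -0.01 and -0.01 over the mitochondrial, peroxisomal and thioesterase genes, and miR-181d-5p liver 1 stood at 0.02, -0.06, -0.33 and -0.81 in the order first given. High and low livers thus occurred in both groups.

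Leaving out control liver 3 moved several values. Without it, 30 of the 35 genes had a log2 change above 0, where the median change of all genes was -0.02. Of the 35, 5 had an unadjusted p under 0.05 by limma, where 511 of all 12053 genes were higher and 1272 lower at that p. The 5 were Ppargc1a (-0.25), Cpt2 (0.22), Acaa1b (0.37), Eci1 (0.20) and Acads (0.18), with adjusted p from 0.206 to 0.3. Without miR-181d-5p liver 3, the other liver that stood apart, Ppargc1a (-0.23) and Acaa1b (0.37) had an unadjusted p under 0.05, with adjusted p of 0.257 and 0.315 by limma. In that fit 380 of all 12053 genes were higher and 1212 lower at that p.

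In the miR-181d-5p livers, bile duct and macrophage markers mostly ran opposite to the levels of the mitochondrial genes. This order was seen in 5 livers, with 10 marker lists at hand, and was not tested. In miR-181d-5p livers 1 to 5 the mitochondrial mean was 0.02, 0.08, -0.06, 0.15 and 0.13, and the 12 cholangiocyte (bile duct) markers summed to 263, 246, 412, 130 and 232 FPKM; the order of the livers was exactly reversed. In control livers 1 to 5 the mitochondrial mean was -0.07, -0.04, 0.22, -0.08 and -0.03 and the cholangiocyte sums were 317, 467, 309, 569 and 399 FPKM. Without Spp1, which macrophages also make, the sums were 56.9 to 117 FPKM in controls and 31.4 to 79.5 FPKM with the microRNA. In the miR-181d-5p group the reversed order then held but for livers 2 and 5. It did not hold in controls, where liver 1 had the lowest of these sums (56.9 FPKM) with a mitochondrial mean of -0.07. Between the groups, 0 of 10 tested cholangiocyte markers, 0 of 18 stellate cell markers and 3 of 18 macrophage markers had a log2 change above 0, with medians of -0.62, -0.38 and -0.26, while 17 of 20 hepatocyte markers had one (12 of 20 after quantile normalization), with a median of 0.07 beside 0.08 for the mitochondrial genes. Macrophage sums ran from 3120 to 4384 FPKM in controls, with liver 1 the lowest, and from 2183 to 3926 FPKM with the microRNA. In miR-181d-5p livers 1 to 5 they were 3329, 2850, 3926, 2183 and 2916 FPKM, the same order of livers as the cholangiocyte sums without Spp1. Stellate cell sums in that group were also lowest in liver 4 (625 FPKM), but highest in liver 1 (802 FPKM). Of the markers in these lists, 0 were at 0 in all livers. The part of cell makeup in the levels of the oxidation genes was not tested.

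**Figure D5:**
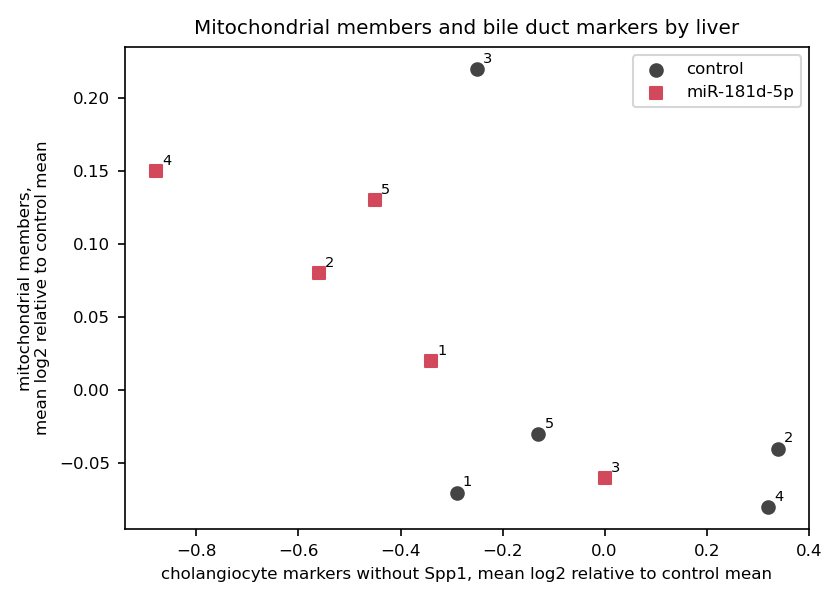
Mean log2(FPKM + 1) of the 16 mitochondrial genes (vertical axis) against that of the cholangiocyte markers without Spp1 (horizontal axis), both relative to the control mean, 1 point per liver, numbered within its group. The miR-181d-5p livers run from liver 4 (0.15 and -0.88) to liver 3 (-0.06 and 0.00), and control liver 3 (0.22 and -0.25) stands above the other controls.

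In the lists of genes around these 35, 0 genes passed by limma after adjustment. Of 27 tested beta-oxidation enzymes and carriers outside the 35 genes, 16 had a log2 change above 0, with a median of 0.05, and 2 had an unadjusted p under 0.05, both higher (5.04% of all genes). Nudt7, a peroxisomal hydrolase of CoA, stood at 23.9 ± 5.03 against 16.1 ± 3.55 FPKM in controls (SD, n = 5 each, log2 change 0.55, adjusted p = 0.24 by limma). Acsl1, which activates fatty acids to acyl-CoA, had a log2 change of -0.01. Among 8 genes of ketone body synthesis and use, 6 were above 0, but 3 with FPKM rescaled to a common sum, with a median of 0.02 that became -0.01. Oxct1, which uses ketone bodies outside hepatocytes, stood at 10.8 ± 1.28 against 13.6 ± 1.68 FPKM in controls (log2 change -0.30, adjusted p = 0.249 by limma).

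Of 36 peroxisomal genes tested outside the 35, 31 had a log2 change above 0 (28 with FPKM rescaled to a common sum, 30 after quantile normalization), with a median of 0.10, and 6 had an unadjusted p under 0.05, all higher, where 5.04% of all genes were higher at that p. Slc25a17, a peroxisomal membrane carrier of cofactors, stood at 34.9 to 35.9 FPKM with the microRNA and 28.9 to 32.6 FPKM in controls (log2 change 0.19, adjusted p = 0.24 by limma). Its groups did not overlap, as for 1.02% of all genes with the microRNA higher. Pecr, a peroxisomal enoyl-CoA reductase, and Amacr, a racemase for branched chains, each had a log2 change of 0.27. Of 18 omega-oxidation and other CYP4 genes, 12 were above 0, with a median of 0.07. At an unadjusted p under 0.05, 1 was higher and 1 lower, where 5.04% and 9.63% of all genes were. They were Adh4, an alcohol dehydrogenase, with a log2 change of 0.29, and Cyp4f18, with -0.33.

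Of 37 other PPAR alpha target genes, 20 were above 0 (15 with FPKM rescaled to a common sum), with a median of 0.00. At an unadjusted p under 0.05 there were 4 higher and 5 lower, where 5.04% and 9.63% of all genes were. Fgf21, a hormone of the fasted and stressed liver, stood at 16.1 to 60.1 FPKM in controls and 43.0 to 96.8 FPKM with the microRNA (log2 change 0.79, or 0.52 without control liver 2, adjusted p = 0.296 by limma with all livers). Me1, a cytosolic source of NADPH, and Gpd1, which makes glycerol phosphate, had log2 changes of 0.31 and 0.29. On the other side were Hilpda, a lipid droplet protein that is also induced by hypoxia (-0.61, or -0.36 without control liver 5), and Txnip, which answers to glucose (-0.45).

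Of 38 transcriptional regulators of fatty acid oxidation, 25 had a log2 change below 0, with a median of -0.05, but 18 of 38 without control liver 1, with a median of 0.01. In the fit of all livers, 4 had an unadjusted p under 0.05, all lower, where 9.63% of all genes were lower at that p. Lpin1, a phosphatidate phosphatase that also acts as a coactivator with PGC-1 alpha, stood at 6.39 to 13.7 FPKM with the microRNA and 9.34 to 20.1 FPKM in controls (log2 change -0.89, adjusted p = 0.221 by limma). Cebpb (-0.33), Creb1 (-0.26) and Pprc1 (-0.26), a coactivator related to PGC-1 alpha, were the other 3. Ppara itself stood at 22.8 ± 7.04 FPKM in controls and 19.1 ± 3.03 FPKM with the microRNA (SD, n = 5 each, log2 change -0.21, adjusted p = 0.611 by limma), and Rxra at 79.8 ± 14.8 and 79.0 ± 4.39 FPKM (log2 change 0.00).

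Beside Pdk4 and Vnn1, 12 genes of pyruvate dehydrogenase control, vanins and CoA synthesis were tested, of which 8 were above 0 (median 0.05), and 6 of 12 either without control liver 5 or when FPKM are rescaled to a common sum. At an unadjusted p under 0.05, 3 of the 12 were higher and 1 lower, where 5.04% and 9.63% of all genes were. Pdhb, the beta subunit of the E1 component, and Coasy, which makes CoA, separated the groups without overlap, as 1.02% of all genes did with the microRNA higher. Their log2 changes were 0.26 and 0.29 (adjusted p = 0.221 and 0.24 by limma). Of 17 fasting and glucocorticoid response genes, 9 were above 0 and 8 below, and 7 had an unadjusted p under 0.05 (14.7% of all genes), 6 of them lower (9.63% of all genes). Per1 (-0.80) and Fkbp5 (-0.48), both induced by glucocorticoids, were among the 6.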

How the data were processed

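Polyadenylated RNA of 10 mouse livers was sequenced, 5 per group, from total RNA made with the mirVana kit and libraries made with the TruSeq Stranded mRNA kit, per the labels. The authors deposited 1 table of FPKM values with 17274 gene symbols. The submitters' processing notes name HISAT2 2.2.1 and HTSeq 0.13.5, as well as DESeq2 1.18.1 and R 3.4.1, besides Trimmomatic 0.38, FastQC 0.11.9 and the mm10 build, in no stated order of use. Strand setting, annotation and FPKM formula are not given in the sources used here.

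FPKM were turned into log2(FPKM + 1) and a linear model with group as the only term was fitted by limma 3.58.1 (lmFit, then eBayes with trend, R 4.3.3) to genes averaging 0.5 FPKM or more, two-sided, with Benjamini-Hochberg adjustment at 0.05. Changes of low genes are understated on this scale. Whole reads within 0.02 of a read could be recovered for 17273 of 17274 genes and for all 35 described, and voom on them was an alternative. Pairs of livers in a group differed by more than counting noise (lowest chi-square per degree of freedom 9.51). Fitted to data simulated from this comparison over 12053 genes, the test called 98 of 100 genes changed by a log2 of 1, 77 of 100 changed by 0.58 and 7 of 11853 unchanged. Changed genes were drawn at random from those averaging 1 FPKM or more, with normal noise drawn independently for each gene. The rates are therefore averages over such genes, and do not apply to Ppargc1a or to the widely spread Cyp4a and Acot genes. Gene positions and 3' UTRs came from GENCODE vM21. Promoters and the microRNA came from RefSeq.

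The members, the 9 pathway and 10 marker lists and the tests were chosen with earlier results of these data known. All 35 members were described. From pathway lists up to 4 genes with the smallest p could be named, and Ppara, Rxra, Fgf21, Slc25a20 and Acsl1 whatever their values. Some genes under that rule are not reported here. Sums without Spp1 were chosen after seeing the data. Alternatives were the pseudocount, the filter, scaling, robust fitting, array weights, voom, a replicate block and leaving out each liver. Other steps used pandas 2.3.3 and numpy 2.4.6 under Python 3.11.15, and figures matplotlib 3.10.9.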

Additional observations from a re-analysis of the deposited data

Results flagged for a closer look

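Among the 35 genes in 2 groups of 5 livers, 70 sets of values were examined for 1 liver far from the rest of its group by Dixon's criterion for 5 values, and 2 were found, where chance gives about 5% of sets. Acadl stood at 187 FPKM in control liver 3, with the next control at 154 FPKM. Acadm stood at 279 FPKM in the same liver, with the next control at 227 FPKM. Both encode mitochondrial acyl-CoA dehydrogenases. Without that liver the log2 changes were 0.07 for Acadl and 0.15 for Acadm.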

How the results depend on the processing

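Of the 35 genes, 19 kept the sign of their log2 change under every alternative that tested them and 16 did not. There were 19 alternatives for each gene but Ppargc1a, which the filter at a mean of 1 FPKM leaves with 18. With FPKM rescaled to a common sum, after quantile normalization and with array weights, in that order, the sign turned for Acadl (-0.02, -0.04 and -0.02), Hadhb (-0.02, -0.03 and -0.02), Ehhadh (-0.01, -0.02 and -0.04), Slc25a20 (-0.03, -0.04 and -0.01) and Rxra (-0.02, -0.04 and -0.02). For Hadha it turned after quantile normalization (-0.01). The cause was not tested.

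Leaving out single livers gave ranges that include both signs, and the cause was not tested. They were -0.04 to 0.07 for Acadl, -0.02 to 0.07 for Hadha, -0.04 to 0.07 for Hadhb and -0.02 to 0.10 for Etfdh. They were -0.17 to 0.17 for Ehhadh, -0.11 to 0.07 for Decr2 and -0.20 to 0.07 for Eci2. They were -0.30 to 0.14 for Cyp4a10, -0.36 to 0.22 for Cyp4a12a, -0.11 to 0.37 for Cyp4a14 and -0.28 to 0.08 for Cyp4a31. They were -0.39 to 0.11 for Acot1, -0.29 to 0.03 for Acot2, -0.57 to 0.09 for Acot3 and -0.30 to 0.01 for Acot4. They were -0.19 to 0.06 for Vnn1, -0.11 to 0.07 for Rxra, -0.07 to 0.08 for Slc25a20 and -0.11 to 0.07 for Acsl1.

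By the same omissions, 0 to 3 of all genes passed after adjustment, none of them among the 35, and 1071 (without miR-181d-5p liver 4) to 2587 genes had an unadjusted p under 0.05. Of the 35 genes, 1 to 5 had one, and 0 did with a filter at a mean of 1 FPKM, which removes Ppargc1a. The microsomal genes above 0 numbered 0 to 4.

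Replicate numbers did not pair the livers: same-numbered livers correlated at -0.28 to 0.01 in their deviations, and none correlated best with its own number. With the numbers as a replicate block, 1 gene passed after adjustment, 384 genes were higher and 836 lower at an unadjusted p under 0.05, and Ppargc1a had an adjusted p of 0.488.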

Other observations

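These are the counts of log2 changes above 0 for lists not counted above. Of 14 pericentral hepatocyte markers 11 were above 0, with a median of 0.12, and of 14 periportal markers 7, with a median of 0.01. Of 14 sinusoidal endothelial markers 4 were above 0 (median -0.08), of 9 tested lymphocyte markers 3 (median -0.13) and of 8 tested neutrophil markers 2 (median -0.08). Single livers turned the last 2: without control liver 4 the lymphocyte markers above 0 were 6 of 9 (median 0.02), and without control liver 5 the neutrophil markers above 0 were 5 of 8 (median 0.05). Of the adipose, muscle and pancreas markers 1 passed the filter on low values, with a log2 change of 0.21. Of 8 tested sex-linked and sex-biased liver genes 4 were above 0 (median -0.02).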
